A study of Xenopus tropicalis with 4 samples.

Results

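Mitochondrial ribosomal protein genes were taken as all genes of the deposited table whose symbol begins with mrpl or mrps followed by a number. There were 71 of them among the 15277 genes with summed reads, and they held 196 polyadenylation sites. The measurements come from 4 libraries of whole-body RNA of adult Xenopus tropicalis, a diploid clawed frog, with 2 libraries titled female and 2 titled male. The labels do not say whether a library holds 1 frog or several pooled, so p-values measure only the spread between these libraries. Reads were taken at the 3' ends of polyadenylated RNA by whole transcriptome termini site sequencing (WTTS-seq), and the title of the series sets female against male use of such ends. The labels give no strain, treatment or exact age, and all groups share the adult stage and the whole body as source.

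Mitochondria keep ribosomes of their own, which make the few proteins encoded by mitochondrial DNA, all of them core subunits of the respiratory chain and ATP synthase. Their RNA is encoded in the mitochondrion, but every ribosomal protein is encoded in the nucleus, made in the cytosol and imported. The large subunit (mrpl genes) forms peptide bonds and the small subunit (mrps genes) decodes the messenger RNA, and each holds proteins with a bacterial counterpart beside others found in mitochondria and not in bacteria. Growing frog oocytes are known for building up large stocks of both mitochondria and cytosolic ribosomes. Roles named below are known from human or bacterial ribosomes, unless stated otherwise.

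Libraries held 1531471 to 2779715 reads, of which 1382751 to 2401820 fell in gene sums, and 17081 reads of the females and 5257 of the males belonged to mitochondrial ribosomal protein genes. Counting error is all that the intervals and floors cover, since the labels name no molecular identifiers, and a gene's count was not divided by its length because reads come from the end of a transcript. Levels are given as CPM, a read count scaled to an edgeR effective library size, and fold changes are male over female on the log2 scale. In whole-body RNA, fewer cells of a type and less RNA per cell cannot be told apart.

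Transcripts of the mitochondrial ribosome were more abundant in females. The 71 genes together took 0.436% and 0.507% of gene reads in females 1 and 2, against 0.137% and 0.142% in males 1 and 2. On the CPM scale their sums were 3742 and 3276 for females 1 and 2, against 1986 and 1857 for males 1 and 2. Both females lay above both males on either scale. Summed over the 46 large-subunit genes the level was 2092 and 1970 CPM in females and 768 and 986 in males. Over the 24 small-subunit genes it was 1637 and 1291 against 1197 and 855 CPM. Despite its symbol mrps30 was counted in the large subunit, and mrps36 was counted in neither.

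**Figure D1:**
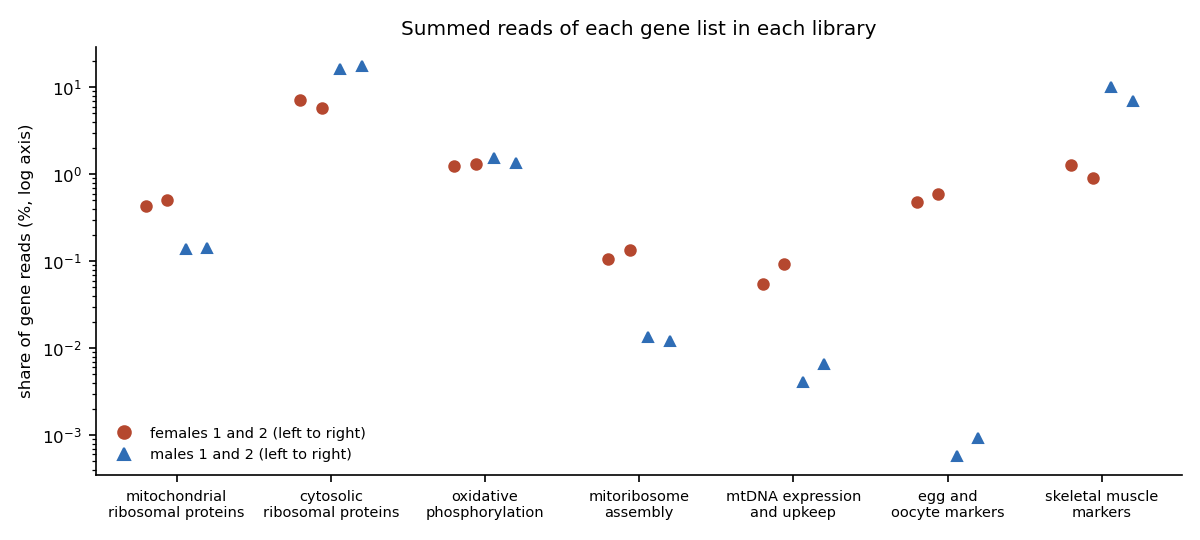
Share of gene reads (%, log axis) taken by each gene list in each library, with circles for females 1 and 2 and triangles for males 1 and 2. Mitochondrial ribosomal proteins took 0.436% and 0.507% in females 1 and 2 against 0.137% and 0.142% in males 1 and 2, while cytosolic ribosomal proteins took more in the males.

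Of the 71 genes, 65 had enough reads for the test. By edgeR's quasi-likelihood test with Benjamini-Hochberg adjustment over all 10257 tested genes at 0.05, 24 of the 65 were higher in females (36.9%, against 19.1% of all tested genes). A single member was higher in males (1.54%, against 16.8%), and 40 did not pass. The median log2 fold change of the tested members was -1.59, and that of all tested genes was -0.33. Fold changes of the 65 ran from -6.75 to 2.74, and 55 lay below 0. Over all 71 genes, tested or not, both females lay above both males in 49 (69.0%, against 34.4% of all genes) and both males above both females in 4 (5.63%, against 31.1%). The sexes overlapped in the other 18. Among the 65 tested the counts were 46 and 4, where all tested genes gave 42.4% and 32.1%.

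**Figure D2:**
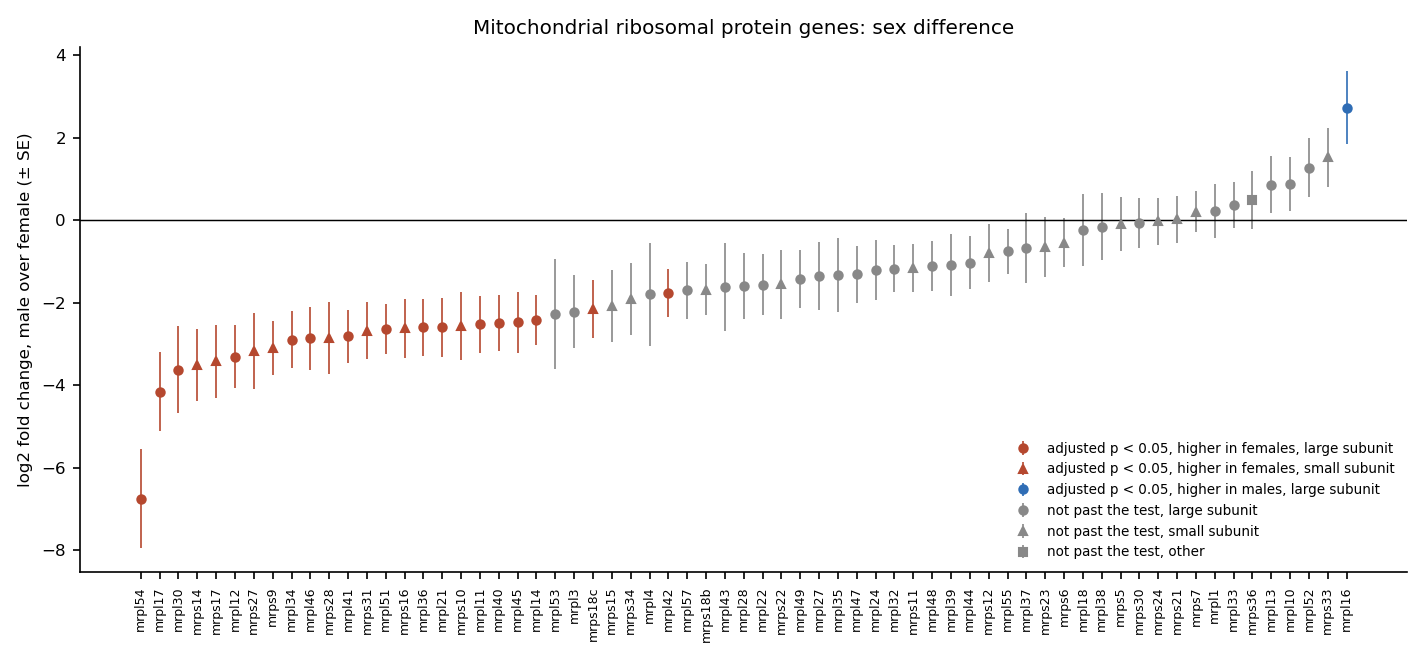
Fitted log2 fold change (male over female, ± SE) of the 65 tested genes in order of size, with circles for the large subunit, triangles for the small subunit and a square for mrps36, and with colour for genes past the test. Of the 65, 24 were higher in females and mrpl16 alone was higher in males, with values from -6.75 to 2.74.

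Fold changes depend on the scaling, here TMM. With library size alone, the counts higher in females and in males were 38 and 0, against 3300 and 1045 of 10257 tested genes. Scaled so that muscle, liver, nerve and connective tissue markers had a median log2 fold of 0, they were 64 and 0. Of all 10257 tested genes, 7936 and 56 were called on that scale. The median of all tested genes moved from -0.33 to -1.23 with library size alone and to -4.21 on the scale of somatic markers. The median of the members minus that of all tested genes was between -1.27 and -1.25 on the 5 scalings tried. A scaling shifts all genes by nearly the same amount, so this difference could hardly move and is no test. It was -0.88 without intronic sites and from -1.64 to -1.09 without 1 library. Without female 1 or without female 2 fewer members were higher in females, and so were fewer of all tested genes. Such fits give the remaining female the spread seen between the males. The median log2 fold of the members was then -1.53 and -1.72, against -0.18 and -0.08 for all tested genes. The genes mrpl54, mrpl17, mrps14 and mrps17 passed whichever library was left out, and the other 20 calls ended without at least 1 library.

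Large subunit genes held the widest difference. mrpl54, a protein of the mitochondrial and not the bacterial ribosome (chromosome 1), had 46.8 and 134.9 CPM in females and 0 and 1.89 in males. Its 428 female reads against 2 male reads gave a ratio of 120 (95% counting interval 33.0 to 993), and the fitted log2 fold was -6.75 ± 1.19 (SE, adjusted p = 0.00995, edgeR). Both females lay far above both males, though female 2 was well above female 1. mrpl17, which has a bacterial counterpart, had 38.2 and 35.0 CPM in females and 0.603 and 3.78 in males, a log2 fold of -4.16 ± 0.96 (adjusted p = 0.0179, edgeR). The females were close to each other, and each male rested on at most 4 reads.

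mrpl12 encodes the stalk protein by which the large subunit takes up translation factors. It had 37.4 and 56.0 CPM in females and 3.02 and 6.62 in males (log2 -3.31 ± 0.76, adjusted p = 0.0178, edgeR), a call that ended without female 2. mrpl10, which anchors that stalk, was at 78.0 and 33.7 CPM in females and 64.5 and 143 in males, and the sexes overlapped (log2 0.89 ± 0.66, adjusted p = 0.31, edgeR). mrpl11, at the base of the stalk, was higher in females, with 81.5 and 82.3 CPM against 7.24 and 21.7. This call of mrpl11 ended without female 1, female 2 or male 1. mrpl12 and mrpl11 thus passed the test and mrpl10 did not, and the difference between the genes was not tested.

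Among other large-subunit genes past the test, mrpl34 had 145 and 74.9 CPM in females and 20.5 and 8.51 in males. mrpl14 had 111 and 72.2 CPM in females and 20.5 and 13.2 in males, and its product lies at the face between the subunits. In mrpl51 the levels were 101 and 62.2 CPM against 13.9 and 12.3. These 3 had log2 folds of -2.90 ± 0.69, -2.42 ± 0.61 and -2.63 ± 0.61 (adjusted p = 0.0196, 0.022 and 0.0184, edgeR), and each call ended without female 1. mrpl41, found in mitochondrial ribosomes only, had 51.1 and 57.8 CPM in females and 7.84 and 7.56 in males, a narrow spread in both sexes (log2 -2.81 ± 0.64, adjusted p = 0.0176, edgeR). The mrpl41 call ended without female 2. mrpl46 had 28.1 and 61.3 CPM in females and 4.83 and 7.56 in males (log2 -2.86 ± 0.76, adjusted p = 0.0259, edgeR), and that call ended without female 2 or without male 1. mrpl45, which helps to hold the ribosome at the inner membrane, had 35.9 and 60.0 CPM against 12.1 and 4.73 (adjusted p = 0.0364, edgeR), a call that lasted only without male 1. The remaining calls of the large subunit, mrpl21, mrpl30, mrpl36, mrpl40 and mrpl42, had log2 folds from -3.62 in mrpl30 to -1.77 in mrpl42. In all, 15 of 42 tested large-subunit genes were female-high and 1 was male-high (all tested genes: 19.1% and 16.8%), with a median of -1.57.

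**Figure D3:**
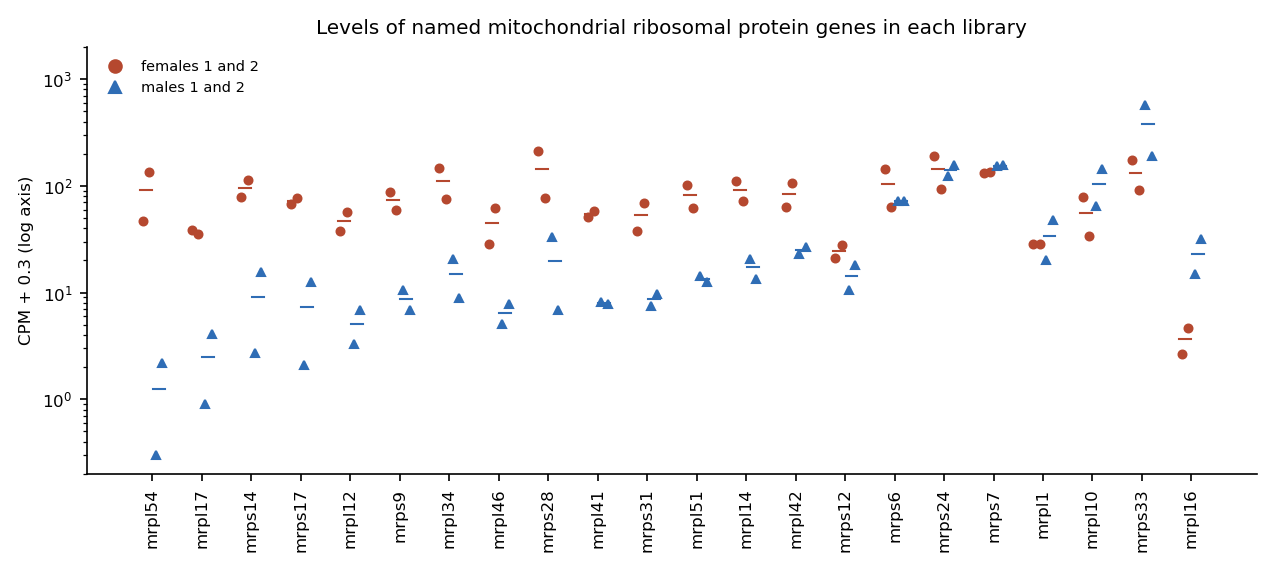
CPM (plus 0.3, log axis) of the mitochondrial ribosomal protein genes named by a fixed rule, in each library, with circles for females, triangles for males and a short bar for the mean of each sex. From mrpl54 to mrpl42 every female point lies above both male points, and in mrpl16, mrps33 and mrps7 both males lie above both females.

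Small subunit genes showed the same direction, with 9 of 22 tested genes higher in females and 0 in males (all tested genes: 19.1% and 16.8%). Their median was -1.79. At an unadjusted p under 0.05, and by DESeq2, 0 of them were higher in males too. With the replicate number as a block, mrps33 was higher in males (adjusted p = 0.0193, edgeR). mrps14, whose counterpart sits in the head of the bacterial small subunit, had 78.4 and 113 CPM in females and 2.41 and 15.1 in males (log2 -3.51 ± 0.87, adjusted p = 0.0216, edgeR). mrps9, a head protein whose tail touches the tRNA in bacterial ribosomes, had 88.1 and 59.1 CPM in females and 10.3 and 6.62 in males (log2 -3.10 ± 0.66, adjusted p = 0.0146, edgeR). The mrps9 call ended without female 1. mrps17 had 67.8 and 76.2 CPM in females and 1.81 and 12.3 in males (log2 -3.42 ± 0.89, adjusted p = 0.0242, edgeR). In mrps14 and mrps17 the females lay closer to each other in ratio than the males, where male 2 was several times above male 1.

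mrps31, a mitochondrial-only protein, had 37.8 and 69.2 CPM in females and 7.24 and 9.45 in males (log2 -2.68 ± 0.69, adjusted p = 0.0236, edgeR), a call that ended without female 2 or without male 1. mrps28 was among the most abundant members, with 213 and 76.6 CPM in females and 32.6 and 6.62 in males (log2 -2.85 ± 0.86, adjusted p = 0.0373, edgeR). Each sex spread widely there, and the call ended without female 1 or without male 2. Of the 54 reads of mrps28 in male 1, 37 came from 1 site across an exon and an intron with 0 reads in the other 3 libraries. mrps27, which carries the repeats of RNA-binding pentatricopeptide proteins, had 13.6 and 20.6 CPM against 1.81 and 1.89 (adjusted p = 0.0336, edgeR), and its call held only without male 2. The other calls were mrps10, mrps16 and mrps18c, with log2 folds of -2.56, -2.62 and -2.15.

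Several abundant members did not pass the test. mrps7, whose bacterial counterpart starts the assembly of the small-subunit head, had 131 and 136 CPM in females and 152 and 156 in males (log2 0.21 ± 0.50, adjusted p = 0.759, edgeR). Its replicates were close in both sexes, with both males a little above both females, a direction that turned with library size alone (log2 -0.69). mrps24 had 191 and 93.7 CPM in females and 123 and 158 in males, with overlap of the sexes (log2 -0.02 ± 0.57, adjusted p = 0.98, edgeR). mrps6 had 145 and 62.6 CPM in females and 71.2 and 71.8 in males, again with overlap (log2 -0.54 ± 0.59, adjusted p = 0.489, edgeR).

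mrps33, a mitochondrial-only protein of the small subunit, had 173 and 91.5 CPM in females and 572 and 189 in males. Its mean over all 4 libraries, 257 CPM, was the highest of the members and rested on male 1, while in females mrps28, mrps24 and mrps7 had higher means (145, 142 and 133 CPM, against 132). Both males lay above both females, but male 1 was several times male 2, and the gene did not pass (log2 1.53 ± 0.71, adjusted p = 0.124, edgeR). It alone held 949 of the 3293 reads of all members in male 1. mrps12, a protein of the decoding centre with 7 sites, had 20.7 and 27.6 CPM in females and 10.3 and 17.96 in males (log2 -0.78 ± 0.71, adjusted p = 0.404, edgeR), and it did not pass although both females lay above both males. mrpl1, with 8 sites the most of any member, had 28.5 CPM in each female and 19.9 and 47.3 in males (log2 0.23 ± 0.66, adjusted p = 0.803, edgeR). mrps36, which carries a ribosomal symbol but whose human counterpart is a subunit of the oxoglutarate dehydrogenase complex, had 12.9 and 14.0 CPM in females and 21.7 and 16.1 in males (adjusted p = 0.6, edgeR).

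The member higher in males, mrpl16, differed from the others in where its reads lay. It had 2.34 and 4.38 CPM in females and 14.5 and 31.2 in males (log2 2.74 ± 0.89, adjusted p = 0.0458, edgeR), and both males lay above both females. All 73 of its reads came from 4 sites within introns, the outermost of them 148699 bases apart, and none from an exonic or downstream site, so no strand could be assigned to the gene. The site at 59704754 (2 reads) lay on the plus strand and the others on the minus strand, and all were summed. Whether these reads stem from mrpl16 transcripts was not tested. Without intronic sites mrpl16 had 0 reads and could not be tested. Its call also ended with library size alone (adjusted p = 0.159), without the filter on low counts (0.0602), with a filter of at least 1 CPM in 2 libraries (0.069), and without female 1, female 2 or male 2, and its direction turned on the scale set by somatic markers (log2 -1.12).

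Grouped by ancestry, the 38 tested members with a bacterial counterpart had a median log2 fold of -1.57, with 15 calls higher in females and 1 in males. The 26 found in mitochondria only had -1.65, with 9 and 0 calls (all tested genes: 19.1% and 16.8%). In the large subunit the medians were -1.55 and -1.62, and in the small subunit -2.07 and -1.68, in the same order. The difference between these classes was not tested. Libraries of the same sex differed by a median of 0.61 (females) and 0.90 (males) in log2(CPM + 1) over the tested members, against 0.62 and 0.75 over all tested genes.

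The 6 members with too few reads for the test were mrpl15, mrpl19, mrpl20, mrpl23, mrps25 and mrps35. mrps25 had 8 and 14 reads in females and 0 in both males, at least 4.11-fold higher against a floor of 3 reads over the males. mrpl15 had 0 and 20 reads in females and 0 in both males, so all its reads came from female 2. mrpl19 had 112 and 0 reads in females against 1 and 1 in males, so nearly all its reads came from female 1. mrpl23 had 11 and 27 reads against 0 and 3, a ratio of 7.09 (counting interval 2.25 to 35.9). In mrpl20 the counts were 39 and 8 against 3 and 5, and in mrps35 they were 11 and 20 against 3 and 4.

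Members lay on 10 chromosomes, with at most 10 on any of them, as matched by symbol to RefSeq genes of assembly UCB_Xtro_10.0. mrps11 and mrpl46 lay on chromosome 3 on opposite strands, and their most read sites were 18868 bases apart and faced away from each other. mrps11, a protein of the small-subunit platform, had 106 and 54.7 CPM in females and 33.8 and 38.8 in males, and it did not pass (log2 -1.15 ± 0.58, adjusted p = 0.155, edgeR), while mrpl46 did. Whether the genes of this pair differed from each other was not tested.

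**Figure D4:**
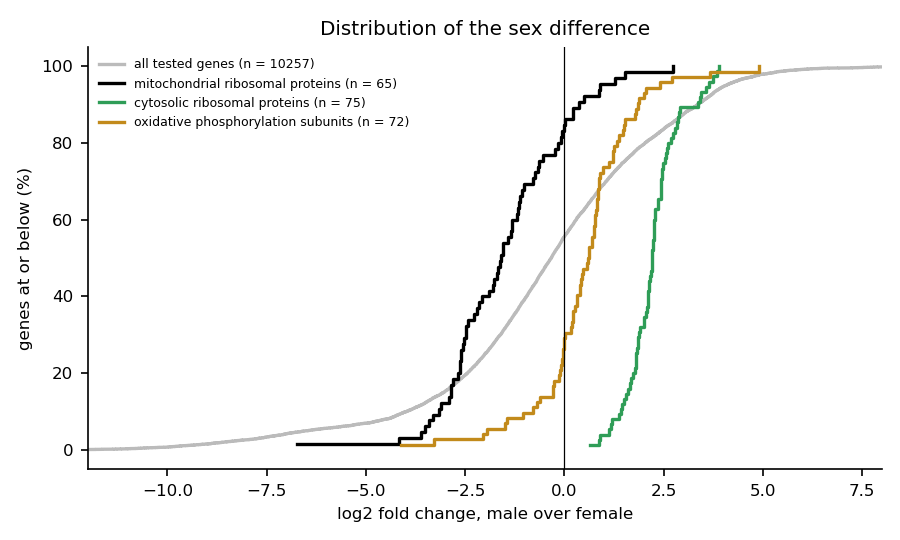
Cumulative share (%) of genes at or below each log2 fold change (male over female) for all 10257 tested genes, 65 mitochondrial ribosomal protein genes, 75 cytosolic ribosomal protein genes and 72 oxidative phosphorylation genes. The median was -1.59 for mitochondrial and 2.21 for cytosolic ribosomal proteins, with -0.33 for all tested genes.

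The other genes that make the mitochondrial ribosome work did not all share the direction. In a list of subunits under other names, 3 of 7 tested genes were higher in females, 0 the other way (median -1.77). They were aurkaip1, a small-subunit protein (log2 -3.14 ± 0.79, adjusted p = 0.0222), gadd45gip1, a large-subunit protein near the exit tunnel (-1.77 ± 0.59, adjusted p = 0.0498), and lactb (-3.02 ± 1.00, adjusted p = 0.0488), once listed among these subunits, all by edgeR. Without 1 library fewer of the 7 passed, and their median ran from -2.06 (without female 2) to -1.16 (without female 1). The GTP-binding subunit gene dap3 (0.31 ± 0.89), the release-factor-like subunit gene ict1 (0.44 ± 0.53) and ptcd3 (-0.45 ± 0.57) did not pass.

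Assembly and rRNA modification factors were higher in females for 10 of 20 tested genes, with 0 higher in males (all tested genes: 19.1% and 16.8%). Their median was -2.55. The pseudouridine synthase gene rpusd4 had 322 and 155 reads in females against 13 and 6 in males (log2 -3.81 ± 0.67, adjusted p = 0.00998, edgeR). ngrn had 50 and 96 reads in females and 0 in both males, at least 27.3-fold higher. The helicase gene dhx30 had 651 and 365 reads against 28 and 31 (log2 -3.17 ± 0.62, adjusted p = 0.0118, edgeR). Without 1 library the median of the assembly list ran from -2.88 (without male 2) to -2.42 (without female 1), and fewer of its genes passed. In mitochondrial DNA expression and upkeep, 5 of 10 tested genes were higher in females, 0 the other way (median -2.60). They included the topoisomerase gene top1mt (-4.23 ± 0.59, adjusted p = 0.00721), the RNA polymerase gene polrmt (-2.64 ± 0.65, adjusted p = 0.0213) and the helicase gene c10orf2 (-2.47 ± 0.70, adjusted p = 0.0313), all by edgeR. Without 1 library the median of this list ran from -4.59 (without male 2) to -2.09 (without male 1). Fewer of its genes passed without female 1, female 2 or male 1, and more without male 2.

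Translation factors had a median of -0.85, with 1 of 12 tested genes higher in females and 0 in males (all tested genes: 19.1% and 16.8%). It was the ribosome recycling factor gene mrrf, with 31 and 33 reads in females against 0 and 1 in males, a ratio of 35.8 (counting interval 6.21 to 1437), and its call ended without either female or without male 1. mtrf1l (log2 -2.14 ± 1.12, adjusted p = 0.163) and lrpprc (1.36 ± 0.73, adjusted p = 0.173) did not pass (edgeR). Aminoacyl-tRNA synthetases of mitochondria had a median of 0.41, with 1 of 12 higher in females and 2 in males (all tested genes: 19.1% and 16.8%). The prolyl enzyme gene pars2 had 64 and 35 reads in females against 0 and 2 in males. The histidyl enzyme gene hars2 had 30 and 21 reads in females against 179 and 24 in males (log2 2.65 ± 0.84, adjusted p = 0.042, edgeR), most of them in male 1. A locus that shares the symbol cars2 with another had 1722 and 456 reads in females against 8550 and 5095 in males (log2 3.52 ± 0.91, adjusted p = 0.024, edgeR). The other cars2 locus had 52 and 43 reads against 16 and 5 and did not pass (log2 -1.41 ± 0.80, adjusted p = 0.192). With library size alone the median of the synthetases was -0.60 with 1 call each way. It was -0.77 without a filter, -0.75 with at least 1 CPM in 2 libraries, -0.31 without intronic sites and -0.37 without male 2. It stayed above 0 with RLE or upper quartile scaling, DESeq2, the replicate block or sites opposite an exon kept. It also stayed above 0 without female 1, female 2 or male 1. On the somatic scale 10 were higher in females and 0 in males, where 7936 of all 10257 tested genes were higher in females. Without female 2 none of the synthetases passed. In the lists of other-named subunits, assembly factors, translation factors and mitochondrial DNA upkeep, 0 genes were higher in males at an unadjusted p under 0.05 or by DESeq2.

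Cytosolic ribosomal protein genes went the other way, with a median of 2.21. Of 75 tested genes, 36 were higher in males and 0 in females (all tested genes: 16.8% and 19.1%). None was higher in females at an unadjusted p under 0.05 or by DESeq2, which called 62 higher in males. With library size alone 12 were higher in males. On the scale set by somatic markers all tested genes had a median of -4.21, with 7936 of 10257 higher in females. The cytosolic genes had a median of -1.68 there, with 33 higher in females and 0 in males. Without 1 library the median of all tested genes ran from -0.56 to -0.08. That of the cytosolic genes ran from 1.80 (without male 2) to 2.41 (without female 1), and fewer of them passed in each of these fits. Cytosolic ribosomal protein genes took 7.23% and 5.72% of gene reads in females against 16.2% and 17.4% in males. Oxidative phosphorylation subunit genes encoded in the nucleus have partners that the mitochondrial ribosome makes. Of 72 tested, 2 were higher in females and 7 in males (all tested genes: 19.1% and 16.8%), with a median of 0.60. With library size alone these were 7, 3 and -0.26, and on the somatic scale 67 were higher in females and 0 in males. Without 1 library the median of these subunit genes ran from 0.29 (without male 2) to 0.72 (without female 1), and fewer were higher in males. These subunit genes took 1.25% and 1.31% of gene reads in females against 1.55% and 1.35% in males. Mitochondrial and cytosolic ribosomal protein genes thus had medians on opposite sides of that of all tested genes, and the difference between the lists was not tested.

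Markers of egg and of muscle moved with sex beside these values. Of 16 egg and oocyte genes, 14 were tested and all 14 were higher in females, summing to 4138 and 3820 CPM in females and 8.45 and 12.3 in males, where 10 of the 16 had 0 reads in both males. The 16 skeletal muscle genes summed to 10835 and 5788 CPM in females and 145840 and 90678 in males, and 15 of 15 tested were higher in males. For liver (8 of 10 tested), nerve (9 of 11), connective tissue (6 of 8) and testis and sperm (2 of 3) the calls were likewise higher in males, with 0 in females also at an unadjusted p under 0.05 or by DESeq2. The testis and sperm list was mixed: 5 of its 8 genes had too few reads for the test. Mean CPM was higher in females in 3 of the 8 and in males in 5. Without female 2 the muscle count was 7 and the liver count 3. The part of this tissue mix in the levels of mitochondrial ribosomal protein genes was not tested.

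Most members ended at 1 main site. The median member had 2 sites against 3 in all genes, and 14 of 71 had a single site (19.7%, against 30.3% of all genes). The most read site held a median of 94.6% of a member's reads (84.1% over all genes). Members also had more reads, with a median of mean CPM of 30.9 against 12.1 over all genes. The part of read depth in these comparisons was not tested. The place of a site was read from class codes taken to be those of Cuffcompare, which the table leaves unnamed. Sites overlapping an exon held 74.4% and 67.9% of member reads in females against 78.1% and 72.7% in males. Sites inside an exon held 19.4% and 25.1% against 14.3% and 19.0%, and sites downstream of the gene 5.11% and 5.41% against 5.19% and 4.02%. Sites within introns held 0.906% and 1.27% of member reads in females against 1.28% and 4.23% in males. Over all genes these shares were 2.68% and 2.11% in females, and 5.83% and 4.41% in males. Without mrpl16 the intronic shares of members were 0.844% and 1.14% in females and 0.551% and 2.59% in males, which overlapped.

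Single sites mostly followed the genes. Of 83 tested sites of members, 23 were higher in females (27.7%, against 19.9% of all tested sites) and 0 in males (against 16.2%), by edgeR. No member site was higher in males at an unadjusted p under 0.05 either, and DESeq2 called 22 and 0. The 23 sites lay in 23 genes. Those of mrpl1 (log2 fold of the gene 0.23) and mrpl3 (-2.21) lay in genes that did not pass. The genes mrps10, mrps17 and mrps31 passed without a called site, and so did mrpl16, where no site had enough reads for the test. In the authors' deposited table, 18 of the 196 sites had an FDR-adjusted p under 0.05 with a fold higher in females and 0 with a fold higher in males (4.46% and 2.01% of all sites), and 17 of the 18 were also called here from the same counts.

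Site use was tested in the 17 members with at least 2 tested sites (diffSpliceDGE of edgeR, adjusted over 3536 genes), and mrpl42 was the member that passed (5.88%, against 16.0% of all such genes). mrpl42 encodes a large-subunit protein found in mitochondria only. Its site at 46674500 (chromosome 3, minus strand, overlapping an exon) had 138 and 186 reads in females against 8 and 9 in males. The site 471 bases further downstream, at 46674029 beyond the annotated gene end, had 16 and 29 reads in females against 30 and 18 in males. The upstream site took 81.4 ± 6.0% of the gene's reads in females and 26.6 ± 7.8% in males, and the downstream site 10.99 ± 1.48% and 71.6 ± 10.4% (SD, n = 2). The shares did not overlap between the sexes. On simulated data this test made a larger share of false calls than its threshold allows. The adjusted p of mrpl42 was 0.033, and it was 0.0512 with library size alone, 0.0691 without intronic sites and 0.181 without the filter on low counts. Its call ended whichever library was left out, and without female 2 or male 1 the test called few or no genes at all. As a single site the upstream one was higher in females (log2 -3.50, adjusted p = 0.0197, edgeR) and the downstream one did not pass (log2 0.72, adjusted p = 0.549). In the test of each site's use against its gene, neither passed (adjusted p = 0.361 and 0.171, diffSpliceDGE of edgeR).

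Next by p were mrpl33 and mrpl1, which did not pass (adjusted p = 0.0562 and 0.0795, diffSpliceDGE of edgeR). mrpl33 has a pair of sites 260 bases apart. The upstream site had 63 and 52 reads in females against 72 and 73 in males, and the downstream site had 49 and 41 against 0 and 5. Its use of the downstream site was thus 43.8% and 44.1% of the reads of the pair in females and 0% and 6.41% in males. mrpl33 passed with RLE size factors (adjusted p = 0.0457), with upper quartile scaling (0.049), with a filter of at least 1 CPM in 2 libraries (0.0256) and without male 2 (0.0265). In mrpl1, whose product is part of the stalk where spent tRNA leaves, an exonic site 24213 bases upstream of the main one had 16 and 9 reads in females against 0 and 1 in males, and as a single site it was higher in females (log2 -3.65, adjusted p = 0.0392, edgeR).

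Between the 2 most read sites of these 17 genes, both females used the downstream site more than both males in 7, both males more than both females in 5, and 5 overlapped. Over all genes with such a pair the first held in 34.1% and the second in 20.9%. In mrps27 the downstream of its pair of exonic sites, 763 bases on, had 12 and 14 reads in females and 0 in both males, and the upstream site had 20 and 26 against 3 and 2. mrps17 used its downstream site, 148 bases on, at 58.4% and 57.7% in females and at 0% and 46.2% in males, where the pair held 3 reads in male 1. mrpl17, with 6 sites inside exons, had 82 and 59 reads in females at its leading site, 60723147 on the minus strand, and 0 and 2 reads there in males. In mrps12 the leading site, 59670311 on the plus strand, held a share of 75.5 ± 8.0% (female) and 76.0 ± 25.6% (male, SD, n = 2).

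**Figure D5:**
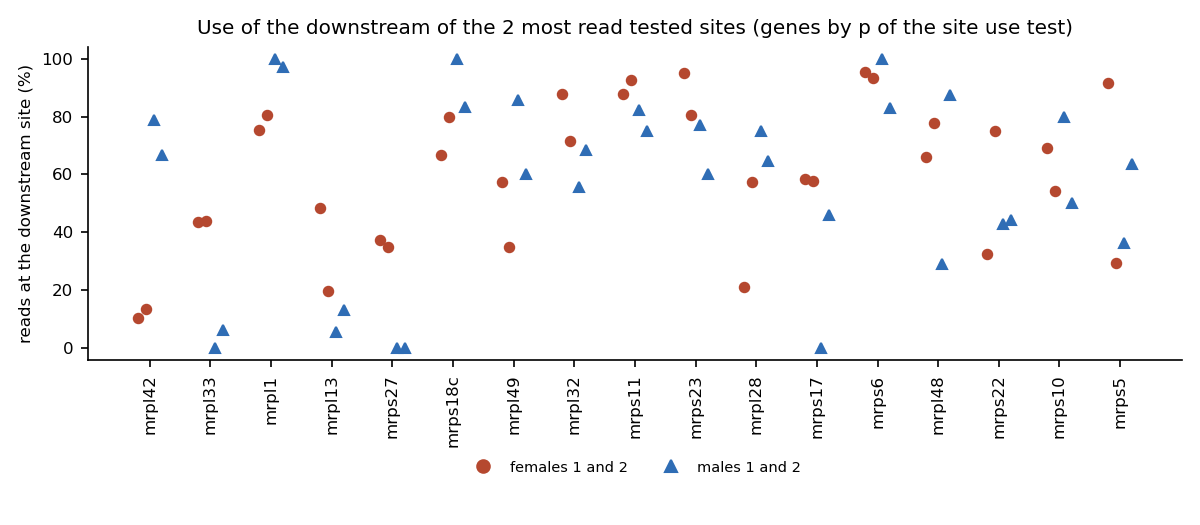
Share (%) of reads at the downstream of the 2 most read tested sites in each of 17 members, ordered by p of the site use test, with circles for females and triangles for males. In mrpl42 the females sit at 10.4% and 13.5% and the males at 78.9% and 66.7%, and in mrpl33 the females sit at 43.8% and 44.1% and the males at 0% and 6.41%.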

How the data were processed

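Per the labels' protocols, Trizol RNA was broken into fragments, selected for poly(A) tails, reverse transcribed, sized and amplified by PCR. The submitters' processing notes list Bowtie2 2.2.3. Build and site calling: not given in the sources used here. Raw counts at 66426 sites were deposited in 1 table together with the authors' p-values and their signed fold score, whose positive sign goes with a higher female CPM. Priming on A-rich stretches was not checked. Positions are as deposited. Counts were summed per gene over sites with a class code other than x (opposite an exon), which left out 1 member site. edgeR 4.0.16 in R 4.3.3 was used with TMM, filterByExpr (minimum count 10, minimum total 15), glmQLFit, glmQLFTest and diffSpliceDGE, with Benjamini-Hochberg adjustment at 0.05 over all features. SEs are the absolute log2 fold over the square root of F. DESeq2 1.42.0 and other scalings, filters and left-out libraries were tried as alternatives. On simulated data, drawn with several seeds, the gene test missed most of the smaller changes. The share of false calls was above the threshold in some draws for the gene test and in every draw for the site use test. With 2 libraries against 2, an exact permutation test cannot go below 0.333, so none is given. Nothing in the labels pairs libraries of the same number. A fold against 0 reads is a bound at 3 reads over that sex, and ratios over 1 to 3 reads carry 95% Clopper-Pearson intervals. The members, lists and tests were chosen with earlier results of these data known. Genes named with full values are up to 12 members past the test per direction by adjusted p, the 6 most abundant, those with differing site use, the 4 with most sites and up to 3 genes per other list; other members are named as parts of the set, after their values were seen. Reads of near-identical gene copies cannot be assigned with certainty.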

Additional observations from a re-analysis of the deposited data

Results flagged for a closer look

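A site opposite an exon of mrps14, on the plus strand at 87934209, was left out of the gene sums. It had 18 and 7 reads in females 1 and 2 and 0 in both males. It is listed because its reads lie outside the gene sums and its 18 reads in female 1 exceed 3. Over all genes, sites opposite an exon took 3.59% and 2.67% of reads in females 1 and 2, against 0.479% and 0.277% in males 1 and 2, so such reads were more frequent in both female libraries as a whole. mrps14 itself had 201 and 259 reads (female) and 4 and 16 reads (male) on its own strand.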

How the results depend on the processing

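Counts of genes higher in females and in males were 38 and 0 with library size alone, 64 and 0 on the scale of somatic markers, 26 and 0 without a filter, 23 and 0 with at least 1 CPM in 2 libraries, 20 and 0 without intronic sites, and 28 and 2 (mrpl16 and mrps33, adjusted p = 0.0354 and 0.0193, edgeR) with the replicate number as a block. Of all 10257 tested genes, 3300 were higher in females with library size alone and 7936 on the somatic scale. Over all tested genes the counts were 2412 and 1848 of 15277 without a filter and 2070 and 1635 of 13272 with the 1 CPM filter. They were 1745 and 1596 of 9686 without intronic sites, and 2553 and 2160 of 10257 with the block. Members tested numbered 71, 69, 64 and 65 in these settings, in that order. The median log2 fold of the members was -2.49, -5.46, -1.84, -1.77 and -1.33 in the first 5 settings above and -1.38 with upper quartile scaling. Leaving out 1 library gave 9 to 28 genes higher in females, 0 to 1 in males and medians from -2.19 to -1.53. The log2 ratio of summed CPM, -0.87, was -1.76 with library size, -0.67 with upper quartile scaling, -4.75 on the somatic scale and -0.96 to -0.77 without 1 library. Sites higher in females were 82 on the somatic scale, 42 with the 1 CPM filter and 7 to 19 without 1 library; sites higher in males were 1 without a filter, 1 with that filter and 0 to 1 without 1 library. Genes with differing site use were 2 with RLE, upper quartile scaling, no filter or the block. They were 0 with library size or without intronic sites, and 5 with the 1 CPM filter. Without 1 library mrpl42 was not called, and mrps28 and mrpl33 were called in some of these fits. Over all tested sites, 12325 of 17215 were higher in females on the somatic scale and 8921 of 38535 with the 1 CPM filter. Over all genes site use differed in 1432 of 7711 with the 1 CPM filter, 853 of 10641 without a filter and 134 of 3144 without intronic sites. Of 3536 genes it differed in 595 with RLE, 577 with upper quartile scaling, 751 with the block and 533 with library size. The male excess of intronic reads was 1.66 points. It was -0.16 as a mean over the shares of 8 deeper members and 0.19 to 3.14 without 1 library. Without mrpl16, an alternative chosen after seeing the data, it was 0.58.

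On the somatic scale the log2 fold turned to -1.12 in mrpl16, -2.36 in mrps33, -3.67 in mrps7, -3.00 in mrpl10, -3.65 in mrpl1, -2.51 in lrpprc, -0.37 in cars2, -1.23 in hars2, -0.47 in rps19, -0.25 in rpl12 and -0.22 in cox7a1. With library size mrps7 was at -0.69 and mrpl1 at -0.64, and without a filter mrps7 was at -0.0042. mrps24 turned to 0.18 with upper quartile scaling, 0.054 with the block, 0.25 without intronic sites, and ran from -0.57 to 0.59 without 1 library, positive without female 1 or male 1 (0.12). Without 1 library mrps6 ran from -1.15 to 0.21 (without female 1), mrpl1 from -0.61 (without male 2) to 0.71 and the testis gene spag16 from -1.69 to 0.071 (without male 2); spag16 was at 0.19 without intronic sites. The somatic scale lowers all log2 folds by about 3.89, so the turns on it follow from the scaling. Library size alone and upper quartile scaling likewise shift all genes by nearly the same amount. Apart from these scalings, and the fewer libraries or sites some settings hold, the cause of the changes was not tested. Deviations of same-numbered libraries correlated at 0.303 over 10257 genes, and with 2 pairs and a bare number in the titles this does not pair the libraries; the block gave 30 and 0 sites and called site use in mrpl33 (adjusted p = 0.0116, edgeR). DESeq2 was not run for site use. Depth limits the low members: the smallest total was 20 reads.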
